A study of Mus musculus with 18 samples.

Results

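The change in gene expression of SIRT6 knockdown (KD) 3T3-L1 cells between 0 hr and 40 hr of adipogenic induction was measured on 6 of the 18 arrays of the study, 3 at each time, and is described for 22180 genes. The arrays were chosen by their sample titles, which give the SIRT6KD genotype and time points T0 and T40, and a gene was taken as a transcript cluster with exactly 1 gene symbol, the brightest over all 18 arrays where a symbol had several. According to the methods of the study, 3T3-L1 is a mouse preadipocyte line, SIRT6 was depleted with a short hairpin RNA, and cells that had been confluent for 2 days were induced with IBMX, dexamethasone and insulin in medium with fetal bovine serum. The 0 hr arrays are therefore of confluent SIRT6 KD cells that were labelled untreated, and the 40 hr arrays are of SIRT6 KD cells that had received the induction mixture. The remaining arrays are of SIRT6 KD cells at 20 hr and of WT cells at 0, 20 and 40 hr, with 3 in each of these groups. They are used here to place the change at 40 hr, and they also enter the estimate of spread between arrays. The deposited labels speak of mice and of an inhibitor rather than of cultured cells and an induction mixture, so the cell line and the hours come from the paper. The methods give at least 3 biological replicates for cell culture work in general, but neither they nor the labels say for the arrays themselves that the 3 of a group came from separate cultures. The limma SEs and p-values measure the spread between arrays within all 6 groups, which may be technical in part.

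3T3-L1 preadipocytes are fibroblast-like cells that stop dividing when they touch each other. The induction mixture acts on several hormone pathways at once: dexamethasone activates the glucocorticoid receptor, IBMX blocks the phosphodiesterases that break down cyclic AMP, and insulin at a high level acts on the insulin and IGF1 receptors. After induction the cells divide again for a short time, a phase named mitotic clonal expansion, while C/EBPβ and C/EBPδ come before PPARγ and C/EBPα, the pair of transcription factors that switch on the genes of fat storage. SIRT6 is a deacetylase of histone H3 that lies on chromatin.

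Sirt6 was measured first, since it is the gene targeted by the hairpin. Its log2 signal in SIRT6 KD cells was 6.96, 7.21 and 7.03 on the 3 arrays at 0 hr, 6.73, 6.98 and 6.97 at 20 hr, and 7.07, 6.80 and 6.86 at 40 hr. In WT cells it was 7.17, 7.41 and 7.15 at 0 hr, 6.96, 7.34 and 7.28 at 20 hr, and 7.18, 7.08 and 7.13 at 40 hr. The SIRT6 KD mean was thus below the WT mean at 0 hr by 0.18 with overlapping arrays (two-sided exact permutation p = 0.3), and at 40 hr by 0.22 with all SIRT6 KD arrays below all WT arrays (exact p = 0.1, the smallest that 3 arrays against 3 allow). Within SIRT6 KD cells the arrays at 0 hr and 40 hr overlapped, and the log2 change of -0.16 did not pass (SE 0.11, limma adjusted p = 0.341; exact permutation p = 0.3). At 20 hr the means were 6.89 in SIRT6 KD and 7.19 in WT cells, with overlapping arrays and no permutation test run. The array probes were not matched to the target of the hairpin, and the depth of the knockdown was not tested. The paper itself shows SIRT6 western blots and real-time PCR of 3T3-L1 cells infected with the hairpin. It does not state whether those cultures were the ones on the arrays.

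The arrays were alike in overall signal, with a median log2 signal between 6.65 and 6.75 on each of the 18. Arrays within the SIRT6 KD groups at 0 hr and 40 hr correlated at 0.993 or more, and arrays of the 2 times at 0.973 to 0.977. As a guide to background, the 95th percentile of the mean log2 signal of 1405 olfactory and vomeronasal receptor clusters was 6.546, called the receptor level below, and 11881 of the genes had a mean above it. Of the markers of other cell types, 7 of 10 for macrophages, 8 of 9 for endothelium, 6 of 8 for epithelium, 4 of 5 for lymphocytes or red cells, 4 of 8 for bone or cartilage, 3 of 9 for skeletal muscle and 1 of 8 for neurons had means below that level. Of all these, 1 neuron marker was called higher at 40 hr (Snap25) and 2 genes were called lower, the neuron marker Map2 and the macrophage marker Lyz2. Fibroblast markers were bright, with the mean of 11 markers at 10.66 to 10.78 on the 0 hr arrays and 10.33 to 10.42 on the 40 hr arrays.

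At 40 hr, 560 genes were higher and 1041 genes were lower than at 0 hr in SIRT6 KD cells, at a limma adjusted p under 0.05 and a fold above 1.5. These calls were 2.52% and 4.69% of the genes compared. The change exceeded 2-fold for 191 higher and 330 lower genes, 4-fold for 30 and 41, and 8-fold for 11 and 5. A further 3557 genes passed the adjusted p with a smaller fold. The median log2 change over all genes was 0.045 and the 5th and 95th percentiles were -0.57 and 0.43, against a median SE of 0.102. For 555 of the higher and 1035 of the lower calls the 3 arrays at 40 hr did not overlap the 3 at 0 hr, which over all genes was the case for 20.1% in the upward and 17.5% in the downward direction. In bulk RNA such as this, fewer cells of a kind and less RNA per cell cannot be told apart.

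**Figure D1:**
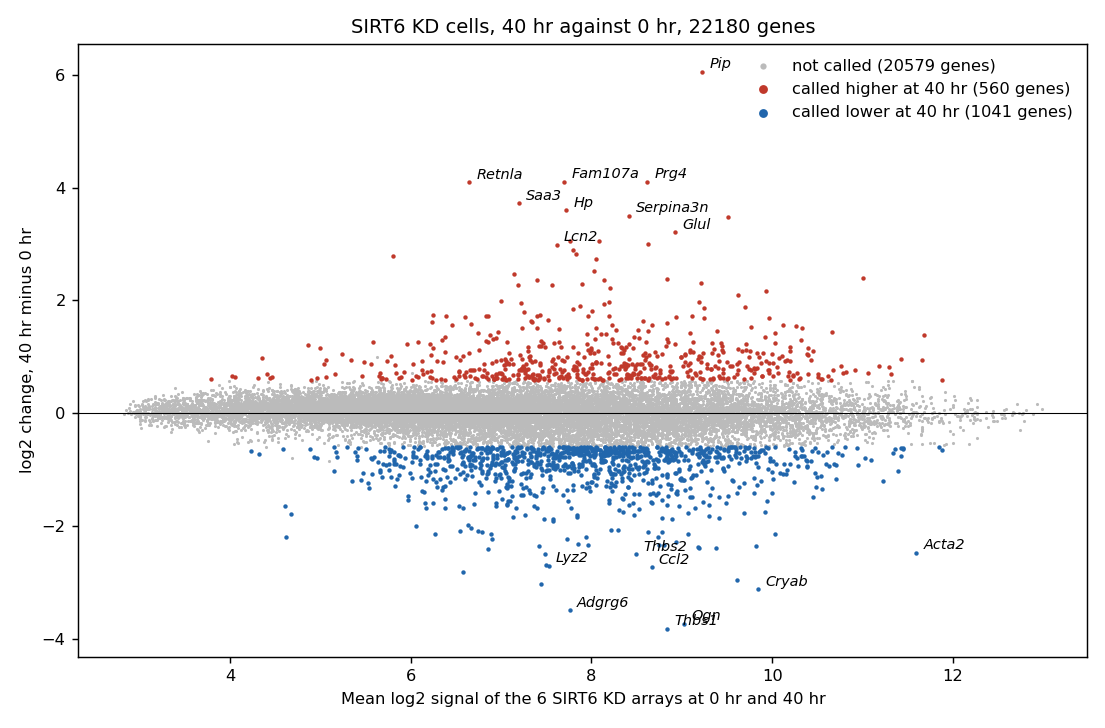
Each point is 1 of 22180 genes, placed by its mean log2 signal over the 6 SIRT6 KD arrays (x axis) and its log2 change at 40 hr against 0 hr (y axis); red and blue mark the 560 genes called higher and the 1041 called lower. The largest changes lie above 6 upward (Pip) and near -4 downward (Thbs1, Ogn).

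The 15 largest rises ran from 7.07-fold to 66.4-fold. Pip, prolactin-induced protein, had a log2 signal of 6.03, 6.37 and 6.19 at 0 hr and of 12.13, 12.34 and 12.28 at 40 hr. It rose by 6.05 ± 0.143 (limma SE from the spread within all 6 groups of 3 arrays), a 66.4-fold change, and was already at 12.17 on average at 20 hr. Prg4, lubricin of joint surfaces, was at 6.71, 6.53 and 6.46 at 0 hr and at 10.54, 10.67 and 10.78 at 40 hr. Retnla, a secreted protein of the resistin family, went from 4.61, 4.45 and 4.73 to 8.69, 8.64 and 8.75, and Fam107a, a stress-induced actin-binding protein, from 5.77, 5.57 and 5.6 to 9.73, 9.82 and 9.69. All 3 rose by about 17.1-fold, with no overlap between the times. Fam107a had reached only 7.06 on average at 20 hr, while Prg4 and Retnla stood at 10.78 and 8.94.

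Saa3, a serum amyloid A protein, was at 5.53, 5.31 and 5.16 at 0 hr and at 9.35, 8.97 and 8.84 at 40 hr, and rose 13.2-fold. Hp, haptoglobin, was at 5.96, 5.91 and 5.89 against 9.57, 9.43 and 9.56, and rose 12.1-fold. Lcn2, lipocalin, was at 6.27, 6.08 and 6.00 against 8.96, 9.19 and 9.17, and rose 7.95-fold. Serpina3n, a serine protease inhibitor, and Wfdc12, of the whey acidic protein family, rose 11.3-fold and 11.1-fold. The remaining genes among the 15 largest rises were Glul (glutamine synthetase, 9.25-fold), Gda (guanine deaminase, 8.30-fold), Scgb1c1 (a secretoglobin, 8.27-fold), Cxcl13 (a chemokine for B cells, 7.99-fold), and the keratins Krt15 (7.45-fold) and Krt9 (7.07-fold). Being called and having arrays that do not overlap were conditions for naming these genes. The SEs ran from 0.0855 to 0.158 log2 units and the largest limma adjusted p was 1.66e-11. For 9 of the 15 the mean at 0 hr was below the receptor level, so that their folds are set against a signal in the range of genes that are off. A less bright cluster of the same symbol gave a smaller rise for Wfdc12 (log2 change 0.84), Fam107a (1.77) and Glul (2.02), and all of these passed as well.

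The 15 largest falls ran from 5.22-fold to 14.2-fold. Thbs1, the matrix protein thrombospondin, was at 10.69, 10.73 and 10.84 at 0 hr and at 7.01, 6.86 and 6.91 at 40 hr. It fell by 3.82 on the log2 scale (SE 0.0946, adjusted p = 9.82e-16), a 14.2-fold change. Ogn, the small proteoglycan osteoglycin, was at 10.81, 10.89 and 10.96 at 0 hr and at 7.23, 7.45 and 6.79 at 40 hr, a 13.3-fold fall. Both were already at 6.98 and 6.90 on average at 20 hr. Adgrg6, an adhesion G protein-coupled receptor, fell 11.2-fold, from 9.45, 9.48 and 9.57 to 6.03, 6.12 and 5.90, and the small heat shock protein gene Cryab 8.71-fold, from 11.40, 11.45 and 11.35 to 8.27, 8.13 and 8.43. Cryab had a second cluster, which fell by 2.78.

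The other genes among the 15 largest falls were Sycp2 (synaptonemal complex, 8.09-fold), Syne1 (the nuclear envelope protein nesprin, 7.74-fold), 4933400A11Rik (7.01-fold), Ccl2 (a monocyte chemokine, 6.64-fold), Lyz2 (lysozyme, 6.48-fold), Mamdc2 (6.44-fold), Thbs2 (a second thrombospondin, 5.66-fold), Prex2 (a Rac exchange factor, 5.64-fold), Acta2 (smooth muscle actin, 5.54-fold), Pla2g7 (a lipoprotein-associated phospholipase, 5.28-fold) and Anxa3 (an annexin, 5.22-fold). These too were named on condition of a call and of arrays that do not overlap, and the largest adjusted p among them was 3.53e-10. Syne1 has 59 clusters on the array, of which 34 were called lower and 0 higher. Some uncalled clusters were above the receptor level, such as a cluster with a mean of 7.55 and a change of 0.02. The 7.74-fold fall is that of the brightest cluster and does not hold for all parts of the gene. For 7 of the 15 the mean at 40 hr was below the receptor level. Lyz2 is also a macrophage marker, and it was the only one of the 10 macrophage markers that was called in either direction: Adgre1 was at 5.65 and 5.84 and Csf1r at 6.15 and 6.11 on average at 0 hr and 40 hr, both below the receptor level at both times, and Cd68 was at 7.81 and 7.80. The log2 of the summed signal of the 10 was 10.17 to 10.27 on the 0 hr arrays and 9.65 to 9.73 on the 40 hr arrays. That sum includes Lyz2 itself, so its drop says nothing apart from Lyz2, and the median log2 change of the 10 was 0.01. The part of other cells in the fall of Lyz2 was not tested.

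**Figure D2:**
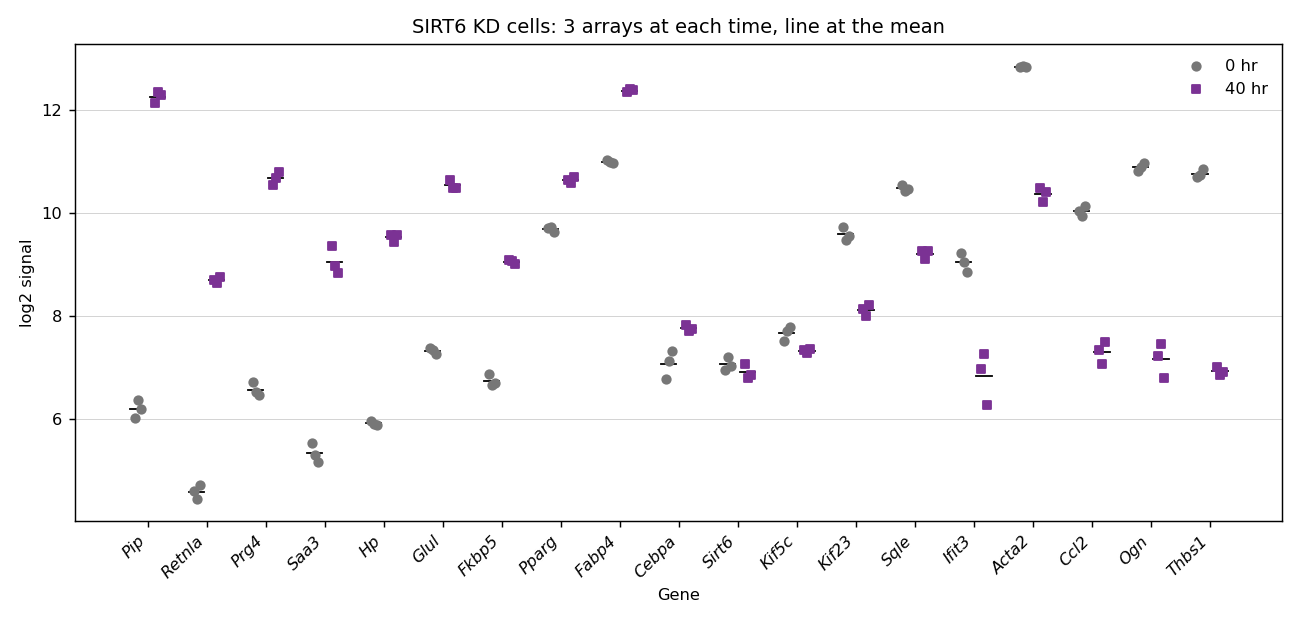
Log2 signal (y axis) of 19 genes named in the text (x axis) on the 3 SIRT6 KD arrays at 0 hr (grey circles) and the 3 at 40 hr (purple squares), with a line at each mean. The arrays of the 2 times lie apart for every gene shown except Sirt6, upward from Pip to Cebpa and downward from Kif5c to Thbs1.

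Beyond single genes, 33 lists of pathway genes were read against the backgrounds of 2.52% called higher and 4.69% called lower. Members are counted where they had a cluster of their own, and the list's median log2 change stands beside 0.045 over all genes.

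The glucocorticoid targets held the largest share of rises of the lists for hormone responses. Of 25 genes, 14 (56%) rose and 0 fell, with a median of 0.63. Fkbp5, a chaperone of the glucocorticoid receptor and one of its best known targets, was at 6.88, 6.67 and 6.69 at 0 hr and at 9.09, 9.06 and 9.0 at 40 hr, and rose by 2.30 ± 0.102. Zbtb16, the zinc finger protein PLZF, was at 6.92, 6.77 and 6.61 against 9.34, 9.24 and 9.27, and rose by 2.52 ± 0.113. Glul and Lcn2, given above, are on this list too. Tsc22d3, the leucine zipper GILZ, rose by 0.93, and Hsd11b1, which regenerates active glucocorticoid, by 1.44. Both of these last genes, like others below that are neither among the largest changes nor the leading members of a list, were picked after their values were seen.

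Of 24 genes of the cyclic AMP response, 5 rose and 1 fell, with a median of 0.06. Rgs2, a regulator of G protein signalling, was at 9.70, 9.88 and 9.82 at 0 hr and at 12.17, 12.22 and 12.20 at 40 hr, and rose 5.28-fold. Another 3 of the rises were phosphodiesterases, the enzymes that IBMX blocks: Pde3b rose 2.50-fold, Pde10a 2.06-fold and Pde4b 2.0-fold. Of 24 genes of IGF and insulin signalling, 7 rose and 3 fell. The adaptor Irs1 of the insulin receptor was at 9.53, 9.74 and 9.66 at 0 hr and at 8.32, 8.25 and 8.21 at 40 hr, a fall of 1.38 ± 0.123, while Irs2, picked after its value was seen, rose by 0.79. Grb14, an inhibitor of the insulin receptor, fell by 1.05. Socs3, a feedback inhibitor of cytokine and insulin signalling, rose by 1.16 in its brightest cluster, with 0.38 in a second cluster that missed the fold. Igfbp4, which binds IGF, rose by 1.10.

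Of 24 adipogenic transcription factors, 8 rose and 1 fell, with a median of 0.29. Pparg was at 9.70, 9.72 and 9.63 at 0 hr and at 10.64, 10.57 and 10.70 at 40 hr, and rose by 0.95 ± 0.0699 (adjusted p = 4.17e-09). Cebpa, its partner late in adipogenesis, was at 6.78, 7.12 and 7.32 at 0 hr and at 7.82, 7.71 and 7.74 at 40 hr, and rose by 0.68 ± 0.141 (adjusted p = 0.0012). The 0 hr arrays of Cebpa ran over a wider range than those of Pparg, and without the lowest of them its change was 0.54 and missed the fold threshold. At 20 hr neither was above its 0 hr level, with means of 9.51 for Pparg and 7.04 for Cebpa.

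The early factor Cebpd was at 7.12, 7.27 and 7.24 at 0 hr and at 8.40, 8.25 and 8.51 at 40 hr, and rose by 1.17 ± 0.107. Cebpb was at 6.95, 6.77 and 6.89 against 7.42, 7.32 and 7.49, a log2 change of 0.54 ± 0.13 (adjusted p = 0.00429) whose 1.45-fold size stayed under the threshold. Their means at 20 hr were 8.04 and 7.55. Klf5, a factor that acts between the early and the late C/EBPs, rose 3.32-fold, from 7.28, 7.29 and 7.42 to 9.13, 8.94 and 9.12. Egr2 (Krox20), an early factor of the same cascade, fell 2.17-fold, from 8.83, 9.15 and 8.90 to 8.17, 7.64 and 7.71.

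Of 33 genes of lipogenesis and the lipid droplet, 10 rose and 1 fell, with a median of 0.19. Fabp4, the fatty acid-binding protein of adipocytes, was at 11.02, 10.99 and 10.96 at 0 hr and at 12.34, 12.39 and 12.37 at 40 hr, and rose 2.60-fold. Fabp5, its relative, was at 9.86, 9.98 and 10 against 11.39, 11.41 and 11.36, and rose 2.72-fold; its other clusters on the array rose as well, by log2 values of 1.38 to 1.76. Pcx (pyruvate carboxylase), Dgat2 (the last step of triglyceride synthesis) and Pnpla2 (the lipase ATGL) rose 3.83-fold, 3.08-fold and 2.64-fold. Fabp4 and Pnpla2 were at 10.95 and 7.45 on average at 20 hr, against 10.99 and 7.46 at 0 hr. Elovl6, an elongase of fatty acids, was the gene that fell, by 1.12, and the lipid droplet coat gene Plin2 had a log2 change of -0.01.

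Of 13 adipokine genes, 5 rose and 0 fell. Retn, resistin, was at 6.00, 6.31 and 6.38 at 0 hr and at 8.18, 8.18 and 8.23 at 40 hr, and rose 3.90-fold. Angptl4, an inhibitor of lipoprotein lipase, was at 8.29, 8.37 and 8.30 against 10.27, 10.16 and 10.13, and rose 3.64-fold. Adipoq, adiponectin, was at 6.38, 6.77 and 6.71 against 7.38, 7.18 and 7.44, a rise of 0.71 ± 0.13 from about the receptor level, and Agt, angiotensinogen, rose by 0.75. Of 8 markers of mature or brown fat cells, 3 rose (Adipoq, Cidec and Retn), 4 stayed below the receptor level at both times, and the brown fat gene Ucp1 was at 5.46 and 5.51 on average. Of 27 genes listed as factors that hold preadipocytes back, 0 rose and 4 fell: the Wnt modulator Sfrp2 by 1.43, Zfp521 by 0.90, Wnt5a by 0.72 and Klf7 by 0.70. Whether each of them restrains adipogenesis in these cells was not tested. A second cluster of Sfrp2 changed by -0.51 and missed the fold.

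The cell cycle lists had different counts at 20 hr and 40 hr. Of 53 genes of mitosis, the spindle and the centromere, 52 were called higher at 20 hr, against a background of 4.04% of all genes called higher and 4.36% called lower at that time, and the median log2 change was 1.17. At 40 hr 0 were called higher and 20 (37.7%) were called lower than at 0 hr, with a median of -0.50, and 51 of the 53 lay below 0. Kif23, a kinesin of the midbody, was at 9.73, 9.47 and 9.54 at 0 hr, at 10.25 on average at 20 hr, and at 8.14, 7.99 and 8.22 at 40 hr. The 40 hr arrays were thus the lowest, 1.47 ± 0.0873 below 0 hr. Ndc80, of the outer kinetochore, was at 10.56, 10.41 and 10.56 at 0 hr, at 11.49 on average at 20 hr, and at 9.15, 8.86 and 9.28 at 40 hr, a fall of 1.42. Anln (anillin, of the cleavage furrow) fell by 1.20 and Kif20b, a mitotic kinesin, by 1.19, after means at 20 hr that were 0.76 and 0.66 above 0 hr. The proliferation antigen Mki67, picked after its value was seen, fell by 0.80, whereas Top2a, picked in the same way, had the largest positive change of the list at 0.48, under the fold threshold.

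The 40 genes of DNA replication and nucleotide synthesis took a different end point. At 20 hr 34 were called higher, with a median of 0.86, and at 40 hr 0 were called higher and 1 lower, with a median of -0.05. The gene that fell was Pole2, a subunit of DNA polymerase epsilon, from 7.94, 7.98 and 8.06 to 7.42, 7.35 and 7.36, a 1.53-fold change close to the threshold that was missed without replicate 3 at 0 hr. Of 18 G1/S cyclins, kinases and E2F factors, 1 rose and 4 fell. Myc was at 7.97, 7.78 and 7.93 at 0 hr and at 9.47, 9.39 and 9.5 at 40 hr, and rose 2.95-fold. Ccnd1 and Ccnd2, cyclins of G1, fell by 1.09 and 0.91, of which falls of 0.89 and 0.78 on the log2 scale were present at 20 hr, and Cks2, a subunit of cyclin-dependent kinase complexes, fell by 0.75. Of 22 inhibitors of the cycle and genes of quiescence, 2 rose and 3 fell, the latter Gas2 by 2.07, Btg2 by 1.38 and Dab2 by 1.33. Cdkn1b, which encodes the inhibitor p27, was at 8.77, 8.96 and 8.89 at 0 hr and at 8.73, 8.61 and 8.81 at 40 hr, with overlapping arrays and a change of -0.16 (adjusted p = 0.178).

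**Figure D3:**
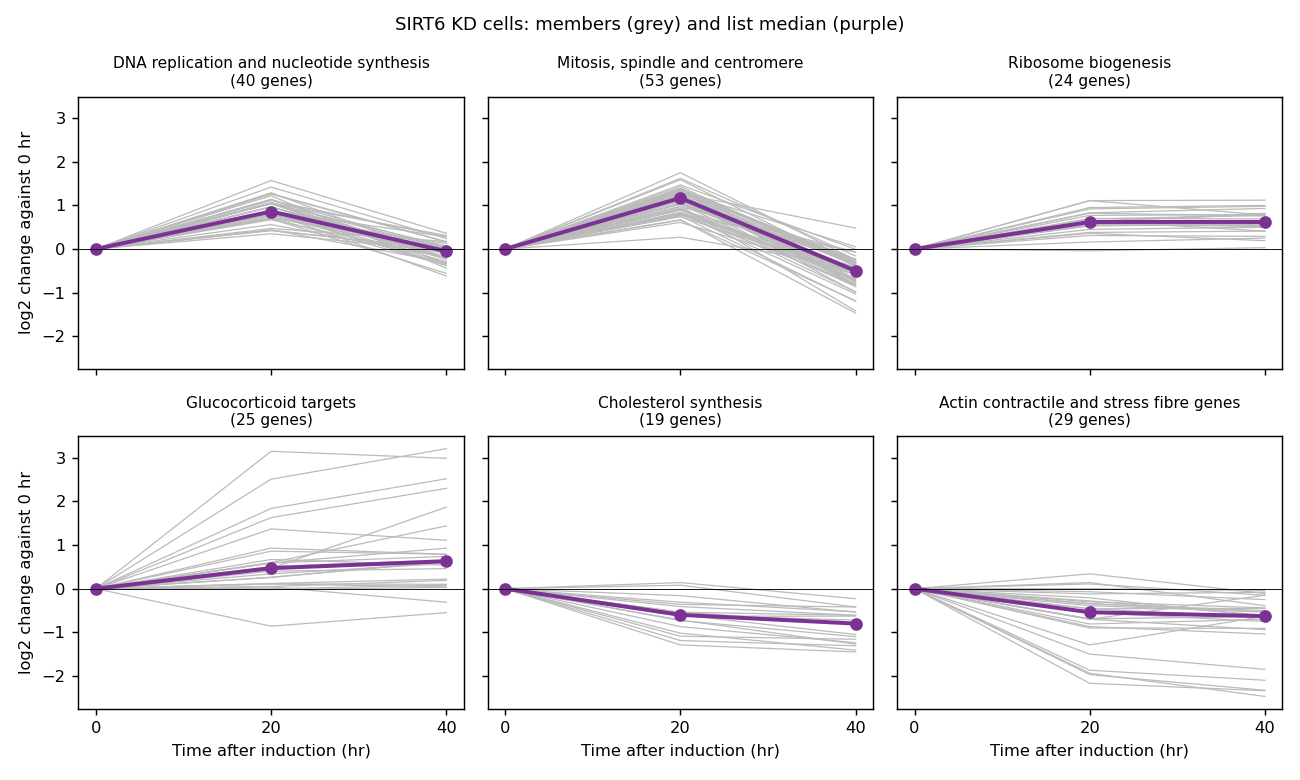
Log2 change against 0 hr (y axis) at 0, 20 and 40 hr (x axis) in SIRT6 KD cells for the members of 6 gene lists (grey lines) and the list median (purple). The lists of DNA replication and mitosis rise to medians of 0.86 and 1.17 at 20 hr and return to -0.05 and -0.50 at 40 hr, whereas ribosome biogenesis stays at 0.62, glucocorticoid targets reach 0.63, and cholesterol synthesis and actin genes reach -0.80 and -0.63.

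Promoters are shown for the mitosis and cholesterol lists, in which 20 of 53 and 14 of 19 members fell. Promoter windows of RefSeq (build GRCm38.p6, 250 bases before to 50 after a start site, the first listed window of each gene) were matched by gene ID to 16918 of the 22180 genes. The searched motifs, on both strands, were the cell cycle homology region CHR (TTTGAAA or TTCGAAA), the CCAAT box (CCAAT), E2F sites (TTTCCCGC, TTTGGCGC or TTTCGCGC), a sterol element (TCACCCCAC), a C/EBP palindrome (TTGCGCAA) and the cyclic AMP response element (TGACGTCA), none of which contains another. Of 44 mitosis genes with a window, 15 (34.1%) held a CHR and 30 (68.2%) a CCAAT box, beside 6.61% and 38.4% of all windows. Of the 18 that were called lower and had a window, 5 (27.8%) and 11 (61.1%) did. Among all genes called lower, 6.83% of windows held a CHR and 40.1% a CCAAT box. Lists that did not fall held CCAAT boxes too, in 63.6% of replication and 61.9% of glucocorticoid target windows. The share was 50.0% for lipogenesis and 40.0% for ribosome biogenesis. The actin and interferon lists, of which 58.6% and 48.5% fell, held a CCAAT box in 57.7% and 48.1% of windows. They held a CHR in 3.85% and 7.41%. E2F sites were held by 13 (39.4%) of 33 windows of the replication list and 2 (4.55%) of the mitosis list, beside 2.52% of all windows. The cyclic AMP element was held by 9.09% of the mitosis windows and 2.45% of all windows, and the C/EBP palindrome by 0.225% of all windows. A match describes letters and was not tested as a binding site.

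Stretches from 150 bases before to 20 after the start are given for 3 genes of mitosis that fell and whose window holds both elements. They are Kif23, on the minus strand at chr9:61946780-61946949, Ect2, the RhoA exchange factor of cytokinesis, on the minus strand at chr3:27153859-27154028, and Kif11, the kinesin that holds spindle poles apart, on the plus strand at chr19:37376232-37376401. Capitals mark the CHR and the CCAAT box on either strand. Ect2 and Kif11 were picked for these matches. Their signals fell by 0.99 and 0.75 at 40 hr, after 1.17 above 0 hr in both at 20 hr. Ckap2, also called lower, held both elements as well and is not printed. The windows of Ndc80 and Anln, which fell more than Ect2 and Kif11, held neither element.
Kif23: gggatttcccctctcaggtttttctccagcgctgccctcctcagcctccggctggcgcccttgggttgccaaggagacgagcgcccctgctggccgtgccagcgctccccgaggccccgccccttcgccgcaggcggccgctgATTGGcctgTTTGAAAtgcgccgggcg
Ect2: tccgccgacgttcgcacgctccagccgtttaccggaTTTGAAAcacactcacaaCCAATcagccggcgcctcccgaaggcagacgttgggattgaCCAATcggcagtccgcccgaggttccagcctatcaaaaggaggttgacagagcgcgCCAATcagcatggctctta
Kif11: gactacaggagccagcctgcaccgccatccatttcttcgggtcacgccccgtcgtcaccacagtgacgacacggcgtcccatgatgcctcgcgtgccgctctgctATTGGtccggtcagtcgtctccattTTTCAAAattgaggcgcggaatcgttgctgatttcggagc

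Of 19 genes of cholesterol synthesis, 14 (73.7%) fell and 0 rose, the highest share of falls of the 33 lists, and all 19 had a log2 change below 0, with a median of -0.80. At 20 hr 10 were called lower, with a median of -0.60. Msmo1, a sterol oxidase, was at 10.10, 10.06 and 9.95 at 0 hr and at 8.59, 8.53 and 8.63 at 40 hr, a fall of 1.45 ± 0.0801. Sqle, the squalene epoxidase, was at 10.54, 10.43 and 10.45 against 9.25, 9.11 and 9.25, a fall of 1.27 ± 0.0895. Fdps, which makes farnesyl diphosphate, fell by 1.41, and Insig1, a sensor that holds sterol-regulated transcription factors back, by 1.31. Hmgcs1, HMG-CoA synthase, was at 11.34, 11.27 and 11.24 against 10.20, 10.08 and 10.10, and fell by 1.16; it was picked for its promoter. Srebf1, which encodes a factor of lipid synthesis, was counted with the adipogenic factors and rose by 0.61. Of 15 members with a window, 14 (93.3%) held a CCAAT box, beside 38.4% of all windows, and 1 (6.67%) the sterol element, beside 0.55%. The stretches of Hmgcs1, the member with the sterol element (plus strand, chr13:119690201-119690370), and of Msmo1 (minus strand, chr8:64733559-64733728) follow, with capitals for the sterol element and the CCAAT box on either strand.
Hmgcs1: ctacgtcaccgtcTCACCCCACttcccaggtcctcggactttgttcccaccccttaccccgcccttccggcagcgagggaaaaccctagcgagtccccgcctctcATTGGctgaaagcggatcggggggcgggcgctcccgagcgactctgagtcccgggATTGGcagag
Msmo1: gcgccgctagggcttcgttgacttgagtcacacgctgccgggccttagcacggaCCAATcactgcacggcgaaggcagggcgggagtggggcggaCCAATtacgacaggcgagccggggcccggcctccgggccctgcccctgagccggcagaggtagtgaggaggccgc

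Of 29 genes of actin contraction and stress fibres, 17 (58.6%) fell and 0 rose, with a median of -0.63. The log2 changes of all 29 lay below 0, and the 12 that were not called included tropomyosin Tpm4 at -0.04 and cardiac actin Actc1 at -0.08. Acta2 was at 12.83, 12.85 and 12.82 at 0 hr, among the brightest genes named here, and at 10.47, 10.21 and 10.41 at 40 hr. Myl9, a myosin light chain, was at 9.73, 10.16 and 10.01 against 7.58, 7.65 and 7.66, and fell 5.05-fold. Actg2, an enteric smooth muscle actin, fell 5.03-fold and the calponin Cnn2 4.28-fold. Actb, cytoplasmic actin and a common reference gene, fell by 0.61 ± 0.135, just past the threshold, and was picked after its value was seen.

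Of 40 matrix glycoproteins and proteoglycans, 7 rose and 12 fell, the latter with Thbs1, Ogn, Thbs2 and Prelp in front. Prelp, a leucine-rich repeat proteoglycan, was at 10.29, 10.47 and 10.38 at 0 hr and at 8.27, 7.79 and 7.94 at 40 hr. This was a fall of 2.38, and a second, dimmer cluster of Prelp fell by 1.03. Lum, a proteoglycan of the same family, went the other way, from 7.18, 7.23 and 7.21 to 9.05, 9.09 and 9.39, and was picked for that. Of 29 collagens and collagen-processing genes, 4 rose and 6 fell: Col8a1, Col1a1 and Col11a1 fell by 1.68, 1.20 and 0.92, and the basement membrane collagen Col4a1 rose by 0.99. Of 24 matrix proteases and inhibitors, 0 rose and 9 fell, with a median of -0.39. The cathepsin Ctsk fell by 1.86, the plasminogen activators Plat and Plau by 1.67 and 1.6, and the matrix metalloprotease Mmp3 by 1.59.

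Of 33 interferon-stimulated genes, 16 (48.5%) fell and 0 rose, with a median of -0.47; 14 of the 33 had a mean below the receptor level. Ifit3, an antiviral protein, was at 9.22, 9.04 and 8.86 at 0 hr and at 6.98, 7.27 and 6.28 at 40 hr, a fall of 2.2 ± 0.306 with a wider spread between the 40 hr arrays than other genes named here. Trim30d was at 8.36, 8.60 and 8.56 at 0 hr and at 6.84, 7.09 and 6.94 at 40 hr, a fall of 1.55 ± 0.122. Ifit2, a relative of Ifit3, and Xaf1 fell by 1.31 and 1.17. Of 31 chemokine, cytokine and acute phase genes, 6 rose and 6 fell. The rises were led by Saa3, Hp and Lcn2 and the falls by Ccl2, which was at 10.03, 9.93 and 10.13 at 0 hr and at 7.34, 7.06 and 7.49 at 40 hr.

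Of 24 genes of ribosome biogenesis, 12 (50%) rose and 0 fell, all 24 had a change above 0, and the median was 0.62 at both 20 hr and 40 hr. Ddx21, a nucleolar helicase, was at 8.85, 8.84 and 8.96 at 0 hr and at 10.05, 9.87 and 10.08 at 40 hr, and rose 2.17-fold. Nop2, Nop56 and Rrp12, factors of ribosomal RNA maturation, rose by 1.0, 0.98 and 0.93. Nop56 had dimmer clusters with changes of 1.20, which was called, and 0.24, which was not. Of 29 cytosolic ribosomal proteins, 0 were called in either direction, with a median of 0.07. The 50 genes of oxidative phosphorylation (median 0.08) and the 30 proteasome subunits (median 0.05) also had 0 calls.

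Among the lists of metabolism, 4 of 38 genes of the citric acid cycle and of fatty acid and branched-chain oxidation rose and 0 fell: Cpt2, of mitochondrial fatty acid import, by 0.97, the isocitrate dehydrogenases Idh2 and Idh3a by 0.84 and 0.65, and Acadm by 0.76. Of 25 genes of glycolysis and the hypoxia response, 5 rose and 1 fell. Hk2, hexokinase, was at 7.23, 7.32 and 7.19 at 0 hr and at 8.84, 8.56 and 8.53 at 40 hr, and rose 2.63-fold. Vegfa and Bnip3 rose by 1.07 and 0.91, and the peptide hormone gene Adm fell by 1.44. In the NRF2 list, 2 of 22 rose and 6 fell. Sod2, mitochondrial superoxide dismutase, and Gclc, of glutathione synthesis, rose by 1.25 and 1.05, and the cystine carrier Slc7a11 and the glutathione transferase Gsta4 fell by 1.22 and 0.90.

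Of 30 genes of the TGF-β and BMP pathway, 3 rose and 6 fell: the receptors Tgfbr2 and Tgfbr3 rose by 1.31 and 1.17, and the ligand Tgfb3 and the BMP antagonist Grem1 fell by 1.52 and 1.48. Of 28 genes of the Wnt pathway, 2 rose (the coreceptor Lrp5 by 1.30 and the transcription factor Lef1 by 0.88) and 2 fell (Rspo3 by 1.08 and Wnt5a). Of 17 clock genes, the repressors Nfil3 and Per1 rose by 1.71 and 0.79, and 4 fell, led by Nr1d2 and Per3 with 1.27 and 1.15. Of 29 genes of the unfolded protein response and ATF4, 2 rose and 5 fell. Dnajb9, a chaperone of the endoplasmic reticulum, rose by 0.90, while Herpud1, of the same organelle, and Phgdh, of serine synthesis, fell by 0.98 and 0.91. Of 17 p53 targets 2 fell (Plk2 by 1.56 and Apaf1 by 0.71), and of 25 lysosome and autophagy genes 1 fell, Gabarapl1, by 0.60.

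None of the 7 sirtuins and none of the 7 measured kinesin-1 chains and CK2 subunits was called at 40 hr. Kif5c, a kinesin-1 heavy chain, was at 7.51, 7.71 and 7.79 at 0 hr and at 7.33, 7.29 and 7.36 at 40 hr. The arrays did not overlap, and the change of -0.34 ± 0.0974 had a limma adjusted p of 0.0146 but a fold of 1.27 (two-sided exact permutation p = 0.1, the smallest possible). Csnk2a1, a catalytic subunit of CK2, was at 10.06, 10.29 and 10.24 against 10.37, 10.32 and 10.52, a change of 0.20 (adjusted p = 0.0945). Csnk2a2, the other catalytic subunit, was at 10.35, 10.40 and 10.48 against 10.27, 10.47 and 10.49, with overlapping arrays (adjusted p = 0.996).

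**Figure D4:**
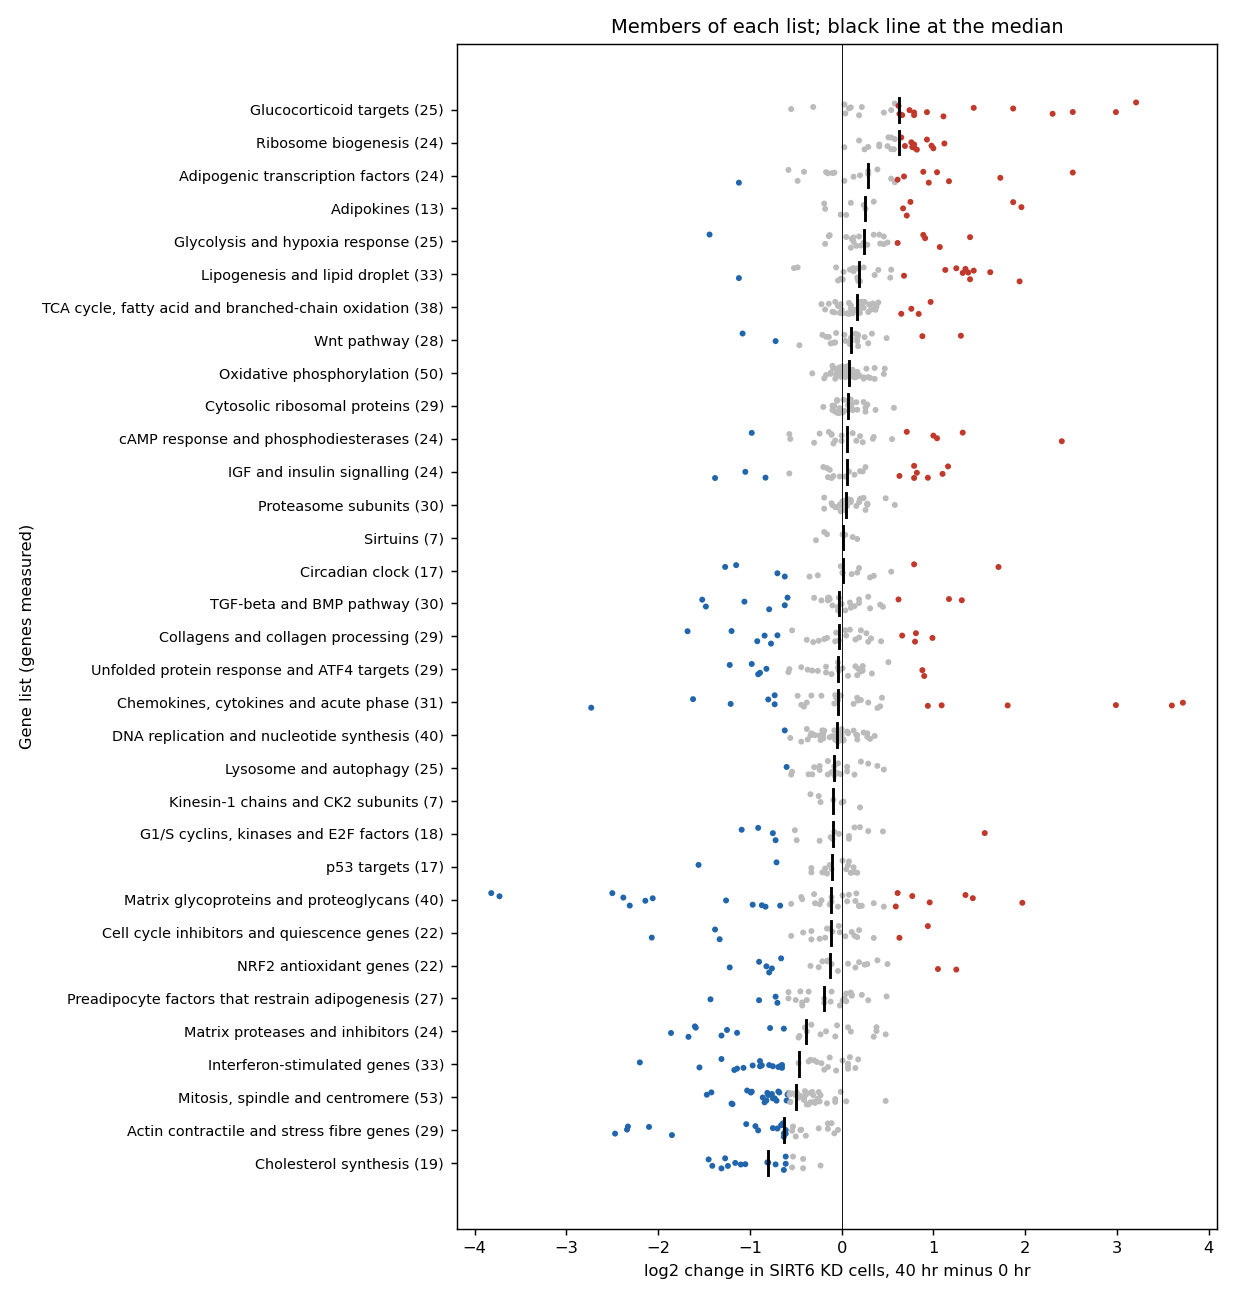
Log2 change at 40 hr against 0 hr in SIRT6 KD cells (x axis) of the members of the 33 gene lists (y axis, with the number of genes measured); red and blue points are called higher and lower, grey points are not called, and the black line is the list median. The medians run from -0.80 for cholesterol synthesis to 0.63 for glucocorticoid targets, and oxidative phosphorylation, ribosomal proteins, proteasome subunits, sirtuins and kinesin-1 with CK2 hold only grey points.

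The same interval was then read in WT cells, which share no array with the SIRT6 KD comparison, to ask how much of the change was present without the knockdown. The sources used here do not state for the arrays whether the WT cells carried a control hairpin, and the part of infection itself in a difference between the populations was not tested. WT cells had 817 genes higher (3.68%) and 853 genes lower (3.85%) at 40 hr than at 0 hr. This balance turned with the scaling, to 952 higher and 746 lower after centring each array on its median. Of the 560 genes called higher in SIRT6 KD cells, 491 were called higher in WT cells, which is 87.7% of the SIRT6 KD list and 60.1% of the WT list. Of the 1041 called lower, 748 were called lower in WT cells, 71.9% of the SIRT6 KD list and 87.7% of the WT list. No gene was called in opposite directions, and 1592 of the 1601 SIRT6 KD calls had the same sign in WT cells. The log2 changes of both populations correlated at r = 0.858 over the 22180 genes and at 0.921 over the 11881 above the receptor level, which describes genes of arrays normalized together and is not a test. All 15 of the largest rises and all 15 of the largest falls were called in WT cells too, Pip with a log2 change of 5.81 and Thbs1 with -3.87.

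**Figure D5:**
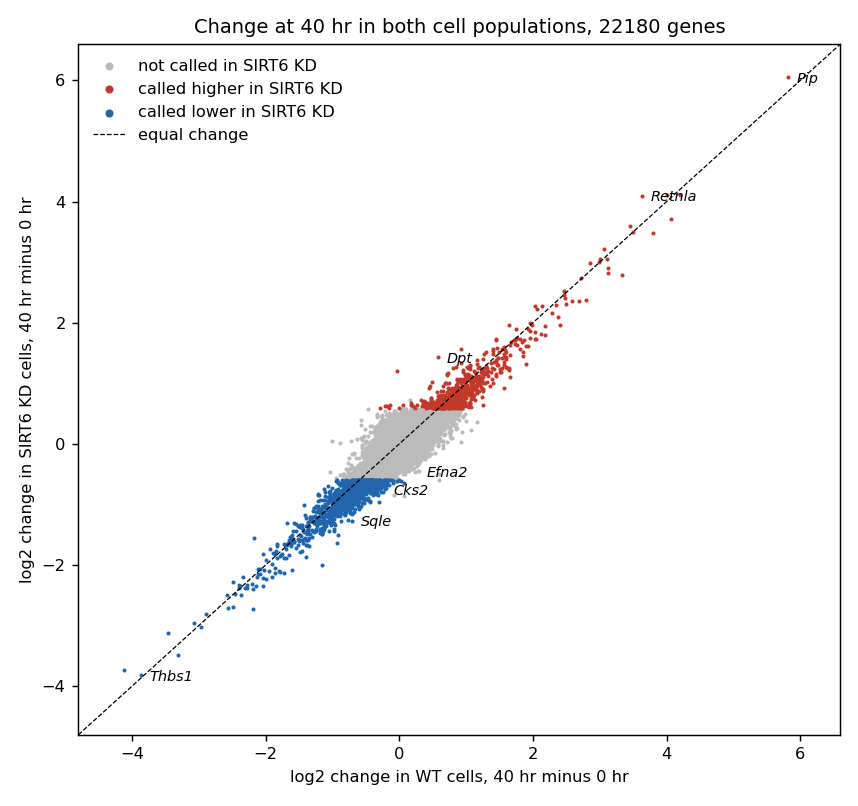
Log2 change at 40 hr against 0 hr in WT cells (x axis) and in SIRT6 KD cells (y axis) for 22180 genes; red and blue mark genes called higher and lower in SIRT6 KD cells and the dashed line marks equal change. Points lie along the dashed line, from Thbs1 near -3.8 to Pip near 6, and Dpt lies above it with 1.43 against 0.58.

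For the 362 genes called in SIRT6 KD cells and not in WT cells, the log2 fold threshold was 0.585. Their median log2 changes were 0.64 with the knockdown and 0.47 in WT cells for the higher genes, and -0.67 and -0.47 for the lower. The 431 genes called in WT cells and not in SIRT6 KD cells had medians of 0.66 in WT and 0.45 in SIRT6 KD cells for the higher, and -0.66 and -0.49 for the lower. Each set was chosen by a call in only 1 population, so the larger median there follows from the choice. The test of the difference itself, the change in SIRT6 KD cells minus that in WT cells, called 0 genes (0.0%) at a limma adjusted p under 0.05, with a smallest adjusted p of 0.285. At an unadjusted p under 0.05 there were 2074 genes (9.35%), where a share of about 0.05 would be expected if no gene differed. The 0 calls therefore do not show that the responses were equal. The median SE of this difference was 0.144, against 0.102 for the change in SIRT6 KD cells alone.

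The genes with the most extreme values of that test are therefore given as values. Dpt, the matrix protein dermatopontin, was at 9.25, 9.23 and 9.47 at 0 hr and at 10.94, 10.63 and 10.67 at 40 hr in SIRT6 KD cells, a rise of 1.43 ± 0.128, and went from 9.13, 9.53 and 9.26 to 9.83, 9.96 and 9.88 in WT cells, a change of 0.58 (difference 0.85 ± 0.181, adjusted p = 0.285). Ndufa11, an accessory subunit of respiratory complex I, was at 10.32, 10.45 and 10.39 against 10.46, 10.42 and 10.68 in SIRT6 KD cells, with overlapping arrays and a change of 0.13, whereas WT cells rose by 0.76. A second, dimmer cluster of Ndufa11 changed by -0.17 in SIRT6 KD cells. Cks2 fell by 0.75 in SIRT6 KD cells, with a change of -0.22 in WT cells. Tgoln1, of the trans-Golgi network, changed by 0.25 in SIRT6 KD cells and rose by 0.85 in WT cells, and the pseudogene Zfp862-ps changed by -0.02 and 0.44. Aldh3b2, an aldehyde dehydrogenase, and Mir345 changed by 0.38 and 0.28 in SIRT6 KD cells and by -0.18 and -0.35 in WT cells.

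Lists were also set side by side. The median at 40 hr was -0.80 in SIRT6 KD and -0.66 in WT cells for cholesterol synthesis, -0.50 and -0.40 for mitosis, -0.63 and -0.42 for actin genes, 0.63 and 0.70 for glucocorticoid targets, 0.62 and 0.76 for ribosome biogenesis, and 0.19 and 0.37 for lipogenesis. Over list members, the median difference of the responses was -0.27 for cholesterol synthesis, -0.1 for mitosis and -0.12 for actin genes. This value was below 0 for most of the 33 lists. Among these were DNA replication (-0.22), the citric acid cycle and oxidation list (-0.17) and lysosome and autophagy genes (-0.17). Oxidative phosphorylation (-0.16) and sirtuins (-0.19), which had 0 calls in SIRT6 KD cells, lay below 0 too. Above 0 were the Wnt pathway (0.11), adipokines (0.1), clock genes (0.07), kinesin-1 with CK2 (0.06) and preadipocyte factors (0.01). No median over all genes was set beside these. Differences by list were not tested. Values of adipogenic genes follow for SIRT6 KD and WT cells in that order. Of the transcription factors, Pparg changed by 0.95 and 0.94, Cebpa by 0.68 and 0.41, Cebpb by 0.54 and 0.77 and Cebpd by 1.17 and 0.73. The adipocyte genes Fabp4 and Adipoq changed by 1.38 and 1.45 and by 0.71 and 0.81. For all of these the limma adjusted p-values of the difference ran from 0.422 to 0.981. Kif5c had a log2 change of -0.34 in SIRT6 KD cells and fell by 0.72 in WT cells, where it was called. The difference of 0.38 ± 0.138 had a limma adjusted p of 0.428. Its mean at 0 hr was 7.67 in SIRT6 KD and 7.41 in WT cells, 0.26 apart (two-sided exact permutation p = 0.2). At 40 hr the means were 7.33 and 6.69, 0.64 apart (exact permutation p = 0.1, the smallest possible). Trim30d fell by 1.55 and 2.17, with an adjusted p of the difference of 0.381.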

How the data were processed

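Total RNA was hybridised to Affymetrix Mouse Gene ST arrays. The authors deposited 1 table of log2 values per transcript cluster, which the submitters' processing notes credit to RMA, a method that corrects background, quantile-normalizes arrays and summarises probes, so that an overall shift in RNA content is removed. The median per array was 6.653 to 6.751. Arrays carry no read depth, and 3 arrays per group limit the precision. Of 41345 clusters, 23521 had 1 gene symbol in the platform annotation, 1820 several and 16004 none listed, and only the first were used. Of the resulting 22180 genes, 21994 matched RefSeq by Entrez ID, and 1082 had 2 or more clusters.

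All 18 arrays were fitted with limma 3.58.1 (R 4.3.3) as 6 groups with 12 residual degrees of freedom, and contrasts were taken between group means. The limma SEs and p-values thus rest on the spread within all 6 groups, with information shared across clusters. P-values were adjusted by Benjamini-Hochberg over the 23521 clusters, and a gene was called at an adjusted p under 0.05 and a fold above 1.5. The scripts were tested on simulated data. Exact permutation tests over arrays were run for Sirt6 and Kif5c only, and all other tests of single genes rest on limma. Tables were handled in Python 3.11.15 with pandas 2.3.3.

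The genes and lists were chosen with earlier results of these data known. Named genes include the 15 largest rises and 15 largest falls. These were taken among called genes whose arrays did not overlap and whose brighter group was above the receptor level. Up to 4 called members of each list were added by size of change. Sirt6, Kif5c, Csnk2a1, Csnk2a2, Csnk2b, Cdkn1b, Pparg, Cebpa, Cebpb, Cebpd, Fabp4 and Adipoq were named whatever their values. The last were the 5 most positive and 5 most negative differences from WT by moderated t. Csnk2b had no cluster of its own here. Other genes in the text were picked after their values were seen. Alternatives covered the variance model, the filter on dim clusters, the scaling, the threshold, the choice of cluster, the replicate block and leaving out each array.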

Additional observations from a re-analysis of the deposited data

Results flagged for a closer look

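Among the 139 named genes there were 3 in which all 3 SIRT6 KD arrays at 40 hr lay to one side of the 0 hr arrays and the WT arrays lay to the opposite side. These 3 had been named for extreme values of this same difference, and other genes were not searched. The test of the difference was run, and none of the 3 passed the adjustment. Jund, an AP-1 transcription factor, was at 8.39, 8.40 and 8.37 at 0 hr and at 8.64, 8.82 and 8.73 at 40 hr in SIRT6 KD cells, and at 8.71, 8.60 and 8.56 against 8.52, 8.52 and 8.43 in WT cells. The difference was 0.48 ± 0.105 (SE, limma adjusted p = 0.285), and a second Jund cluster changed by 0.04 in SIRT6 KD cells.

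Chrna7, a nicotinic acetylcholine receptor subunit, was at 6.55, 6.63 and 6.57 against 6.68, 6.80 and 6.72 in SIRT6 KD cells and at 6.74, 6.76 and 6.64 against 6.41, 6.49 and 6.45 in WT cells. The difference was 0.42 ± 0.0965 (limma adjusted p = 0.327), with all values near the receptor level of 6.546. Efna2, an ephrin ligand, was at 7.13, 6.87 and 6.84 against 6.70, 6.41 and 6.38 in SIRT6 KD cells and at 6.86, 7.04 and 6.95 against 7.18, 7.25 and 7.25 in WT cells. The difference was -0.73 ± 0.155 (limma adjusted p = 0.285).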

How the results depend on the processing

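With a fold above 2, the counts for SIRT6 KD cells were 191 higher and 330 lower and those for WT cells 233 and 269, and with no fold threshold they were 2387 and 2771, and 2711 and 2344. Leaving out 1 array at a time gave 550 to 606 higher and 1017 to 1094 lower for SIRT6 KD cells, with 741 to 900 and 789 to 905 for WT cells. All other alternatives stayed within 1.5 times the counts given, although median centring turned the balance in WT cells to 952 higher and 746 lower. The difference between responses had 1 call (Ndufa11, adjusted p = 0.0332) with a trended, robust prior and 97 at an unadjusted p under 0.05 with a fold above 1.5, against 0.

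The labels number the replicates, but same-numbered SIRT6 KD arrays at 0 hr and 40 hr deviated together at r = -0.0518, -0.119 and 0.000192, so the numbers were not read as pairs. With the replicate block there were 558 higher and 1038 lower for SIRT6 KD cells, 815 and 852 for WT cells, and 0 for the difference.

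Of 139 named genes, 130 kept their verdict in every alternative fit that held them and in the next brightest cluster. Genes with a mean below the receptor level, such as Mmp3 and Agt, were not in the fit filtered on dim clusters. The other thresholds were applied to the counts and not to single genes. Pparg (1.93-fold), Adipoq (1.64-fold) and Cebpa (1.61-fold), for example, lie under a fold of 2. The sign turned for Csnk2a2 (0.01 with median centring, 0.02 with cyclic loess, 0.04 without replicate 3 at 0 hr, 0.07 without replicate 1 at 40 hr, with the changes without single arrays between -0.04 and 0.07), Zfp862-ps (0.01 without replicate 2 at 0 hr, 0.02 without replicate 3 at 40 hr, with those changes between -0.06 and 0.02) and Ndufa11 (-0.17 in its next brightest cluster). A call was lost for Sfrp2 (-0.51) and Socs3 (0.38) in the next brightest cluster, for Pole2 (-0.58) without replicate 3 at 0 hr, for Cebpa (0.54) without replicate 1 at 0 hr, and for Gabarapl1 with cyclic loess (-0.58) and without each of 3 arrays (-0.58 to -0.48). Cebpb passed at 0.59 without replicate 2 at 40 hr. For genes near the receptor level of 6.546, folds are limited by background signal.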
